A study of Rattus norvegicus with 7 samples.

Results

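Heat shock proteins of the cytosol and the mitochondrion were examined in alveolar type 2 cells, which line the air sacs of the lung and secrete surfactant, from ethanol-fed and control rats. The genes were Hspb1, Hspa1a, Hspa8, Hsph1, Hspd1, Hspe1, Cryab and Dnaja1, and every probe set whose platform annotation gave exactly 1 of these symbols was taken. This gave 15 of the 8740 probe sets tested, for 7 of the 8 genes. A further 7 probe sets named a member together with another gene and are described separately: 4 of Hspa1a and Hspa1b, 2 of Hspa8 and Haus8l2, and 1 of Hspb1 and Asb2. Hspa8 was measured only in this shared form. No filter on low values was applied, so all 15 entered the test.

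The cells came from male Sprague Dawley rats that received a Lieber-DeCarli liquid diet for 6 weeks. In the ethanol group (3 animals, replicates 2, 3 and 4) ethanol supplied 36% of calories, and the control group (4 animals, replicates 1 to 4) received an isocaloric diet without ethanol. The sources used here do not state the animals' age. Type 2 cells were collected by immunoadsorption, RNA was extracted with Trizol, and each animal's RNA was read on 1 Affymetrix array. All control arrays carry lower array numbers than all ethanol arrays, so diet and anything that follows this numbering cannot be told apart.

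Heat shock proteins are chaperones that hold or refold unfolded proteins, and many are induced by the transcription factor HSF1 when proteins are damaged. Small heat shock proteins such as Hspb1 and Cryab hold unfolding proteins in a soluble state. Hspa8 and Hspa1a, the constitutive and the stress-inducible HSP70, then refold them with a J domain partner such as Dnaja1 and a nucleotide exchange factor such as Hsph1. Hspd1 and Hspe1, also called HSP60 and HSP10, form the folding chamber of the mitochondrial matrix. HSF1 binds the heat shock element, made of GAA and TTC units that alternate with a gap of any 2 bases.

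The letters of this element were searched because they are what several members share apart from their annotation. RefSeq promoter windows of the GRCr8 assembly, from 250 bases before to 50 bases after a start site, were at hand for 7 of the 8 members, the exception being Cryab. In 6 of the 7 this site is the outer start of the annotated gene, while the Hspd1 window is set on a site 295 bases inside the gene. Both strands are covered, since the reverse complement of each motif is in the search. A run of 3 units (GAANNTTCNNGAA or TTCNNGAANNTTC) lay in 5 of the 7 windows, those of Hspa8, Hsph1, Hspd1, Hspe1 and Dnaja1, and in 0.798% of all 33469 windows. A pair of units (GAANNTTC or TTCNNGAA, also part of each longer run) lay in 6 of the 7, with Hspb1 added, and in 15.9% of all windows. The Hspa1a window held neither, which says only that these letters are not in that window. The stretches below show the longest run of each window, with the units in capitals and the gene's own strand given 5′ to 3′.
Hspd1, minus strand, chr9:64084256-64084285: ggggccTTCcgGAAggTTCtaGAAccgagc
Hspe1, plus strand, chr9:64084256-64084285: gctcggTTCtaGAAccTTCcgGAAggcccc
Hspa8, plus strand, chr8:50080453-50080477: gaacccTTCtgGAAggTTCtaagac
Hsph1, plus strand, chr12:10427326-10427350: cgcagaTTCtgGAAagTTCtcctca
Dnaja1, plus strand, chr5:60638407-60638431: cgggcgGAActTTCcaGAAcgctcg
Hspb1, minus strand, chr12:26432417-26432436: actagaGAAgtTTCcagatg
Hspd1 and Hspe1 are transcribed away from each other, the annotated genes overlap by 6 bases at their starts, and their windows held the same 4 units at chr9:64084262-64084279, read from opposite strands. The run began 65 bases before the start of Hspe1. In Hspd1 it began 242 bases before the site of its window, which is 53 bases past the outer start of the annotated gene. In Hspa8 it began 55 bases and in Hsph1 36 bases before the start, and in Dnaja1 it began 9 bases past it. Hspa8 held a second run of 3 units, at 213 bases before the start, and Hspb1 a second pair, at 109 bases before the start against 129 for the pair shown. A match describes the letters and is not evidence of binding.

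Values below are the deposited log2 expression values, so a difference of 1 is a doubling. Each probe set was tested with limma, with Benjamini-Hochberg adjusted p-values taken over the whole set of 8740. At adjusted p under 0.05, 0 of the 15 member probe sets passed in limma, beside 0.149% of all probe sets. The lowest adjusted p was 0.813, and 3 of the 15 had an unadjusted p under 0.05, all of Hspb1 and all higher with ethanol. Over all probe sets 4.58% had an unadjusted p under 0.05, 2.13% being higher and 2.45% lower. The ethanol mean was above the control mean in 14 of the 15, beside 48.5% of all probe sets. The 15 belong to 7 genes and were read on the same arrays, so they do not count as 15 separate results. The median log2 difference was 0.21, against -0.0051 over all probe sets. Every ethanol array lay above every control in 1 of the 15, beside 2.53% of all probe sets. In a bulk isolate of this kind, fewer cells of a type and less RNA per cell cannot be told apart.

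**Figure D1:**
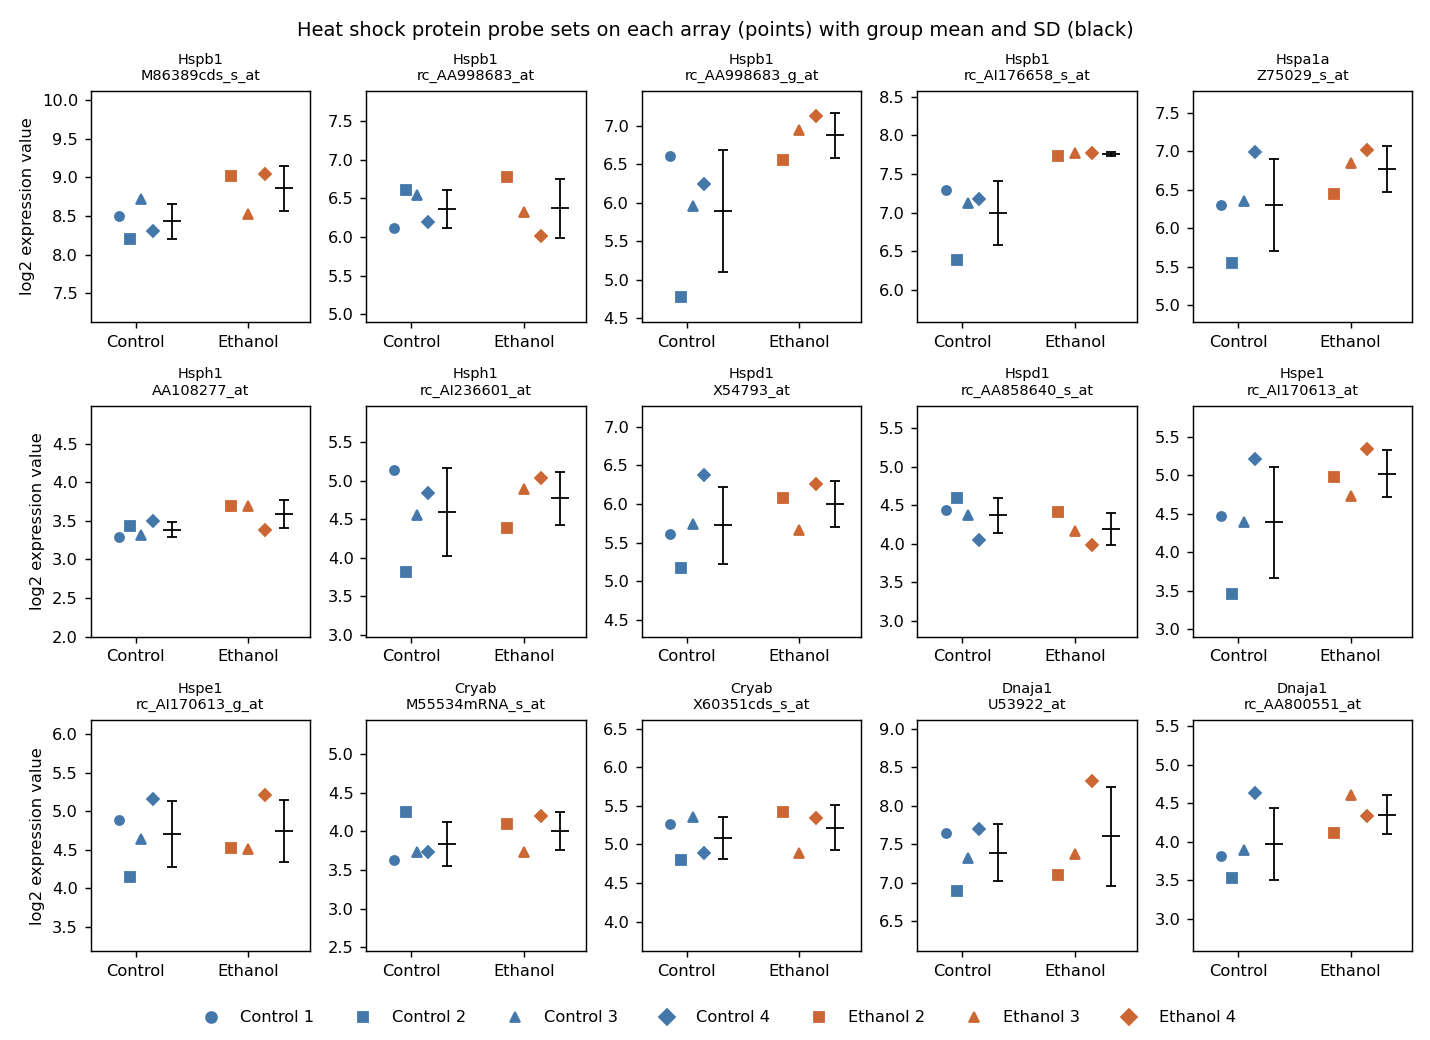
Log2 expression value (vertical axis, all panels spanning the same range) of the 15 member probe sets on the 4 control arrays (blue) and 3 ethanol arrays (orange); the marker shape is the replicate number, and the black mark and bar are the group mean and SD. The ethanol arrays lie above all controls only for Hspb1 rc_AI176658_s_at, and control 2 is the lowest point of 11 panels.

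Hspb1, the small heat shock protein HSP27, gave the 3 lowest unadjusted p-values of the member probe sets. Its probe set rc_AI176658_s_at lay at 7.29, 6.38, 7.13 and 7.18 in controls 1 to 4 and at 7.73, 7.77 and 7.77 in ethanol 2 to 4. All 3 ethanol arrays stood above all 4 controls and within 0.05 of each other, while control 2 was well below the other controls. The means were 7.00 ± 0.41 (SD, n = 4) and 7.76 ± 0.025 (SD, n = 3), a log2 difference of 0.76 (SE 0.21, 1.70 times, limma adjusted p = 0.813, unadjusted 0.00452). With each array left out the difference ran from 0.56, without control 2, to 0.86, without control 1.

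The 3 other Hspb1 probe sets did not give 1 answer. On rc_AA998683_g_at the controls were at 6.61, 4.78, 5.96 and 6.24 and the ethanol arrays at 6.56, 6.95 and 7.12, a log2 difference of 0.98 (SE 0.37, limma adjusted p = 0.967). Here control 1 lay above ethanol 2, and control 2 was lowest by more than 1 unit. The difference fell to 0.61 without control 2 and was 1.22 without control 1. On M86389cds_s_at the controls were at 8.49, 8.21, 8.72 and 8.30 and the ethanol arrays at 9.02, 8.53 and 9.04, a log2 difference of 0.43 (SE 0.18, adjusted p = 0.967). Ethanol 3 lay inside the control range on this probe set. On rc_AA998683_at the controls were at 6.12, 6.61, 6.55 and 6.19 and the ethanol arrays at 6.78, 6.32 and 6.02, and the log2 difference was 0.0054 (95% confidence interval -0.44 to 0.45).

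Both rc_AA998683 probe sets carry the same accession, yet they ordered the arrays differently. Of the 21 pairs of arrays, 5 stood in the same order on rc_AA998683_at and rc_AA998683_g_at. The g probe set and rc_AI176658_s_at shared the order of 20 of 21 pairs, and M86389cds_s_at shared 16 and 17 pairs with them. Thus rc_AA998683_g_at and rc_AI176658_s_at shared nearly all of their array order, and M86389cds_s_at shared less of it. The remaining one, rc_AA998683_at, shared 10 of 21 pairs with M86389cds_s_at and 6 with rc_AI176658_s_at. Unrelated probe sets were not counted in this way. The probe set annotated to both Asb2 and Hspb1, rc_AA799438_at, was nearly level, from 4.60 to 4.83 over all 7 arrays, with a log2 difference of 0.059 (95% confidence interval -0.19 to 0.31).

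Cryab, the alphaB-crystallin gene and the other small heat shock protein among the members, differed little. X60351cds_s_at lay at 5.27, 4.80, 5.36 and 4.89 in the controls and at 5.42, 4.89 and 5.34 with ethanol, a log2 difference of 0.14 (95% confidence interval -0.28 to 0.56). M55534mRNA_s_at lay at 3.63, 4.26, 3.74 and 3.74 in the controls and at 4.09, 3.73 and 4.21 with ethanol, a log2 difference of 0.17 (95% confidence interval -0.24 to 0.58). On both the groups overlapped: ethanol 2 lay above all controls on the first, and all 3 ethanol arrays lay within the control range on the second. Control 2 was the lowest array on the first and the highest on the second, and 11 of 21 array pairs stood in the same order. The intervals allow a rise of about the size seen for Hspb1 on M86389cds_s_at, and the difference between the genes was not tested.

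Hspa1a, the stress-inducible HSP70, had a probe set annotated to it alone, Z75029_s_at. The annotation does not show that its probes leave out Hspa1b. This probe set lay at 6.31, 5.55, 6.36 and 7.00 in controls 1 to 4 and at 6.45, 6.85 and 7.02 in ethanol 2 to 4. Control 4 was level with the highest ethanol array, and control 2 was the lowest. The means were 6.30 ± 0.59 (SD, n = 4) and 6.77 ± 0.29 (SD, n = 3), a log2 difference of 0.47 (SE 0.29, limma adjusted p = 0.967). Without control 2 the difference was 0.22, and without control 4 it was 0.70.

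The 4 probe sets annotated to both Hspa1a and Hspa1b, near-identical genes that probes can hardly tell apart, disagreed on the ethanol arrays. L16764_s_at lay at 7.86, 7.01, 7.77 and 8.25 in the controls and at 8.07, 8.35 and 8.43 with ethanol, a log2 difference of 0.56 (95% confidence interval -0.014 to 1.13, limma adjusted p = 0.967). Z27118cds_s_at lay at 6.59, 5.76, 6.51 and 7.20 in the controls and at 6.85, 7.54 and 6.61 with ethanol, a log2 difference of 0.48 (95% confidence interval -0.24 to 1.20). On AA848563_s_at the controls were at 5.83, 4.74, 5.74 and 6.18 and the ethanol arrays at 5.71, 6.27 and 5.02, a log2 difference of 0.044. On rc_AA818604_s_at the controls were at 5.65, 3.80, 5.19 and 5.99 and the ethanol arrays at 5.08, 6.22 and 4.42, a log2 difference of 0.086. Ethanol 4 was thus the highest array on L16764_s_at and on Z75029_s_at, but the second lowest, after control 2, on AA848563_s_at and rc_AA818604_s_at. The last 2 ordered all 21 array pairs alike, and Z75029_s_at shared the order of 19 pairs with L16764_s_at and of 12 with each of these 2. Without ethanol 3 the difference of rc_AA818604_s_at was -0.40, and without ethanol 4 it was 0.49.

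Hspa8, the constitutive HSC70, was read by probe sets that are also annotated to Haus8l2. On rc_AI234604_s_at the controls were at 9.31, 9.01, 9.12 and 9.69 and the ethanol arrays at 9.59, 9.77 and 9.70. Controls 1 to 3 lay below every ethanol array, and control 4 lay among them. The log2 difference was 0.40 (SE 0.17, limma adjusted p = 0.967, unadjusted 0.0381), and it ran from 0.31 without control 2 to 0.54 without control 4. On M11942_s_at the controls were at 7.58, 7.33, 7.33 and 8.43 and the ethanol arrays at 8.07, 7.72 and 8.15, a log2 difference of 0.31 (95% confidence interval -0.27 to 0.90). Control 4 was the highest of the 7 arrays here, and both probe sets ordered 17 of 21 array pairs alike.

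The partners of HSP70 were less alike. Hsph1, the HSP105 nucleotide exchange factor, lay on rc_AI236601_at at 5.14, 3.81, 4.56 and 4.85 in the controls and at 4.38, 4.89 and 5.04 with ethanol. Control 1 was the highest array and control 2 the lowest, and the log2 difference of 0.18 (SE 0.29) became -0.078 without control 2. Its other probe set, AA108277_at, was dim, at 3.30 to 3.49 in the controls and 3.38 to 3.70 with ethanol, a difference of 0.20 (95% confidence interval -0.081 to 0.49). Dnaja1, a J domain protein that delivers clients to HSP70, lay on U53922_at at 7.64, 6.90, 7.32 and 7.69 in the controls and at 7.11, 7.38 and 8.32 with ethanol. Its highest value was that of ethanol 4, and the log2 difference of 0.21 (SE 0.29) became -0.15 without that array. On rc_AA800551_at Dnaja1 lay at 3.82, 3.53, 3.90 and 4.63 in the controls and at 4.11, 4.61 and 4.34 with ethanol, a log2 difference of 0.39 (95% confidence interval -0.16 to 0.93). Controls 1 to 3 lay below all ethanol arrays there, and control 4 above them.

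In the mitochondrial pair, Hspd1 X54793_at and Hspe1 rc_AI170613_at ordered 18 of 21 array pairs alike. The other Hspd1 probe set, rc_AA858640_s_at, ordered only 3 of 21 as that Hspe1 probe set did. No such count was made for unrelated genes, and the part of the shared run of heat shock units was not tested. On X54793_at Hspd1 lay at 5.61, 5.18, 5.74 and 6.38 in the controls and at 6.07, 5.67 and 6.26 with ethanol, a log2 difference of 0.27 (95% confidence interval -0.31 to 0.86). On rc_AI170613_at Hspe1 lay at 4.48, 3.47, 4.40 and 5.22 in the controls and at 4.98, 4.74 and 5.35 with ethanol, a log2 difference of 0.63 (SE 0.34, limma adjusted p = 0.967). In both, control 2 was the lowest array, and control 4 and ethanol 4 were the highest. The difference of this Hspe1 probe set was 0.32 without control 2 and 0.91 without control 4. The other probe set of each gene gave another value. Hspe1 on rc_AI170613_g_at had a difference of 0.038 (95% confidence interval -0.53 to 0.61), and Hspd1 on rc_AA858640_s_at was the 1 member probe set with a lower ethanol mean, at -0.18 (95% confidence interval -0.54 to 0.18). The Hspd1 probe sets ordered only 4 of 21 array pairs alike, and those of Hspe1 17 of 21.

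**Figure D2:**
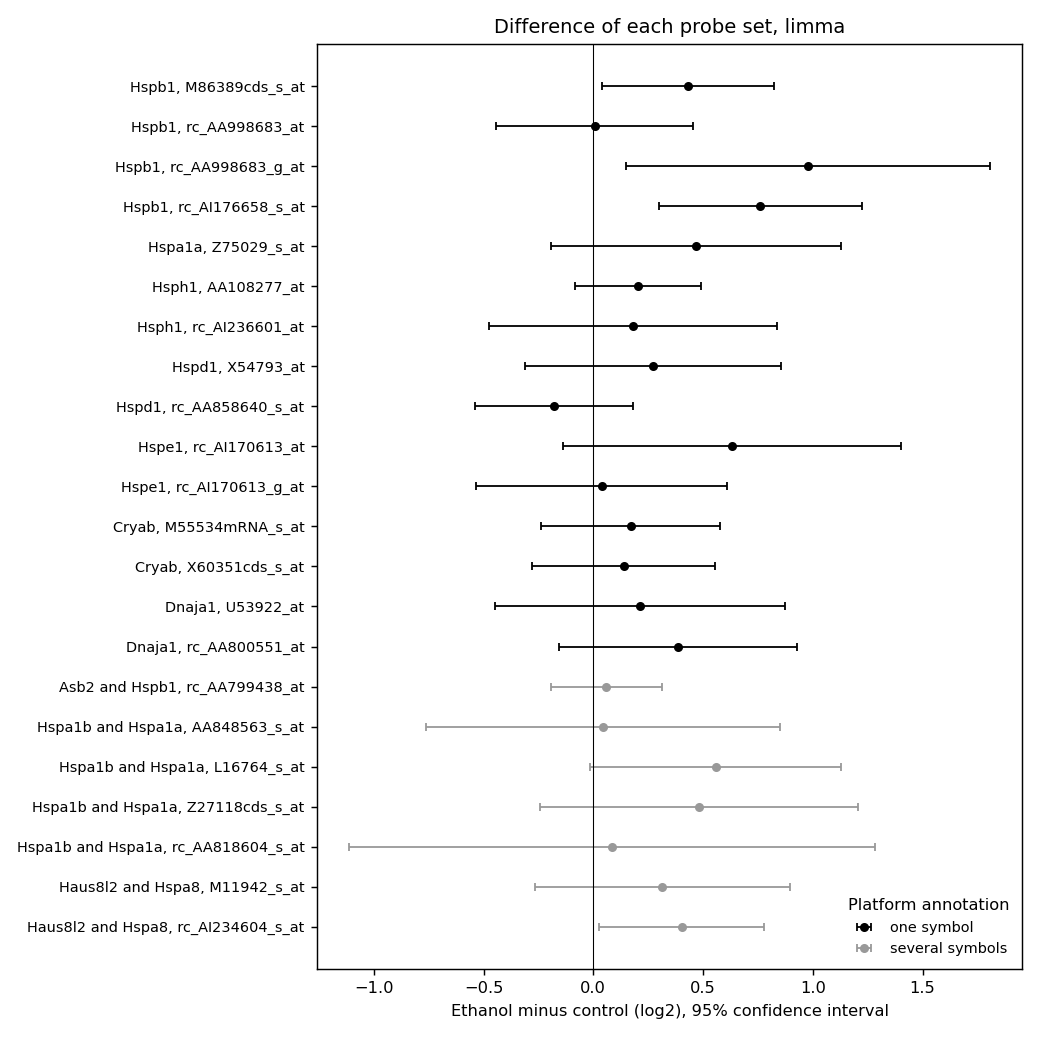
Ethanol minus control log2 difference (horizontal axis) with its 95% confidence interval for the 15 member probe sets (black) and the 7 that name a member and another gene (grey). The intervals of Hspb1 M86389cds_s_at, rc_AA998683_g_at and rc_AI176658_s_at, and of rc_AI234604_s_at (Hspa8 and Haus8l2), lie above 0, and the 18 others include 0.

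The members differed more between animals of 1 group than most probe sets did. Their median within-group SD was 0.39, against 0.19 over all probe sets, and 14 of the 15 lay above that overall median. Control 2 was the lowest array on 11 of the 15 and on 18 of all 22, whereas it was lowest in 22.1% of all probe sets. It was lowest in 28.3% of the brighter ones, those with a mean over the arrays above the median of all such means. Ethanol 4 was the highest on 7 of the 15, against 13.5% of all probe sets and 18.5% of those brighter than the median. As a mean deviation from each probe set's own average, the 15 lay at -0.028, -0.52, -0.093 and 0.10 in controls 1 to 4 and at 0.13, 0.082 and 0.33 in ethanol 2 to 4. Control 2 stood lowest and ethanol 4 highest, and control 4 lay between ethanol 3 and ethanol 2.

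**Figure D3:**
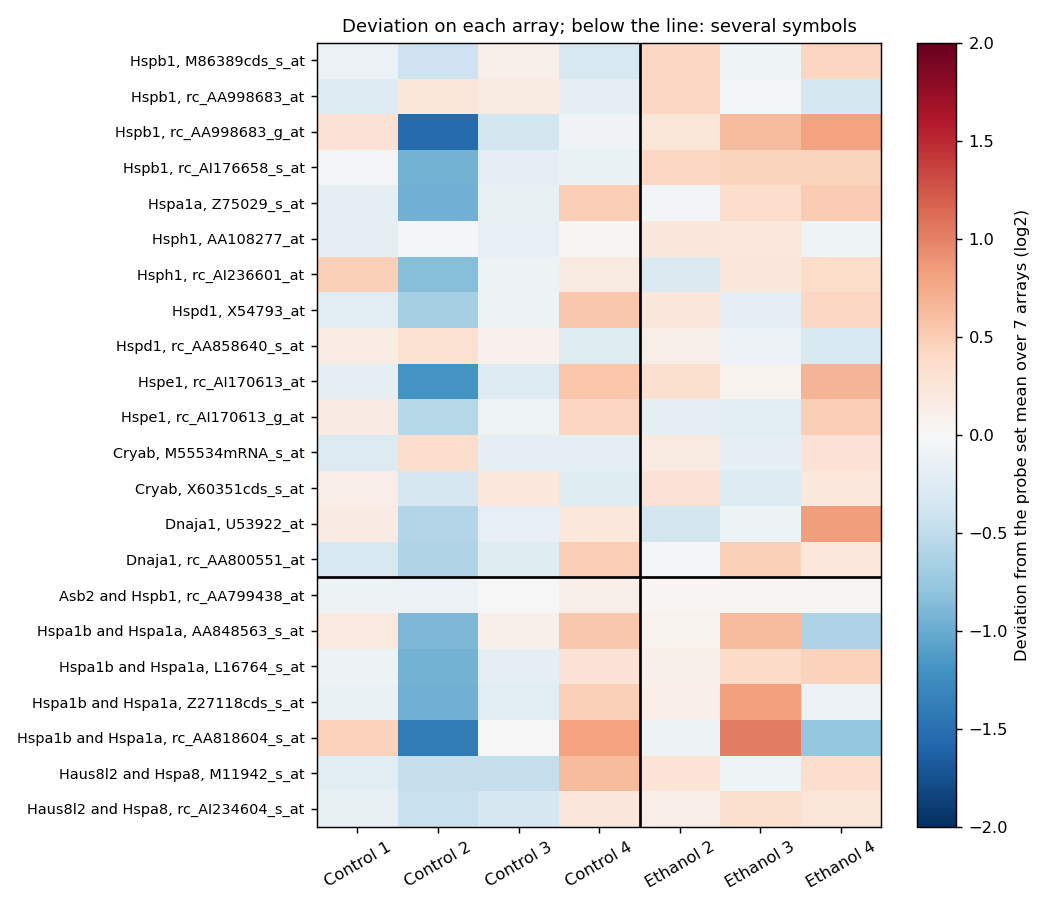
Deviation of each array (columns) from the mean of the probe set over the 7 arrays (log2, blue below and red above) for the 15 member probe sets and, under the horizontal line, the 7 with several symbols. The control 2 column is blue in most rows, and ethanol 4 is red for L16764_s_at but blue for AA848563_s_at and rc_AA818604_s_at.

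With each array left out in turn, 12 to 14 of the 15 had a higher ethanol mean, and the median log2 difference ran from 0.18 to 0.35. Control 2 and ethanol 4 were then left out together. They were chosen as the lowest control and the highest ethanol array, so a smaller difference follows from the choice. In that setting 9 of the 15 were higher and 6 lower, and the median log2 difference was 0.16. In that comparison Hspb1 was at 0.55 on rc_AI176658_s_at, 0.49 on rc_AA998683_g_at, 0.27 on M86389cds_s_at and 0.26 on rc_AA998683_at, while Hspa1a was at 0.093, and Dnaja1 on U53922_at was at -0.31. Under all these settings 0 member probe sets passed in limma, and without both arrays 2 of the 15 had an unadjusted p under 0.05, beside 7.84% of all probe sets in that setting.

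Other measures also set these arrays apart. The SD of all values on an array was lowest in control 2, at 1.29 against 1.34 to 1.46 in the other 6 arrays, and highest in ethanol 4. With that SD as a covariate, 13 of the 15 were higher, with a median of 0.21, and Hspb1 rc_AI176658_s_at had a log2 difference of 0.67 (limma adjusted p = 0.230). Immediate-early genes, which respond within minutes to stress such as cell isolation, were measured for 6 of 8 listed genes (Fos, Jun, Junb, Egr1, Atf3 and Dusp1). Of their 17 probe sets 16 were higher with ethanol and 1 was lower, beside 48.5% of all probe sets higher. Probe sets of 1 gene are not independent, so the 17 do not count as 17 genes. The median log2 difference was 0.43, and in limma 0 passed. At unadjusted p under 0.05 there were 2, both higher, beside 2.13% of all probe sets. The mean deviation of the 6 genes was -0.016, -0.46, -0.28 and -0.021 in controls 1 to 4 and -0.36, 0.53 and 0.61 in ethanol 2 to 4. Control 2 was low and ethanol 4 high here as well, while ethanol 2 was low in these genes and above 0 in the 15 heat shock probe sets. The immediate-early values take 1 probe set per gene. Taken in that way, the 7 member genes lay at 0.054, -0.63, -0.040 and 0.19 in controls 1 to 4. In ethanol 2 to 4 they lay at 0.00028, -0.039 and 0.46, so ethanol 2 and ethanol 3 were below controls 1 and 4. The part of these genes in the heat shock values was not tested.

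**Figure D4:**
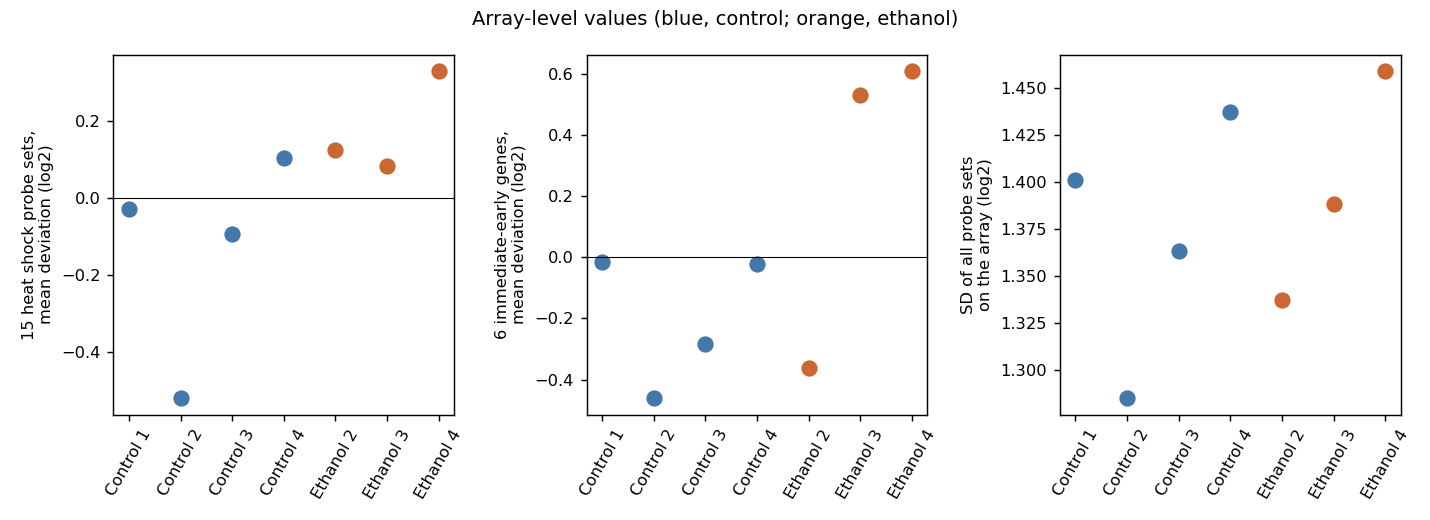
Values of each array (horizontal axis; blue, control; orange, ethanol): mean deviation of the 15 heat shock probe sets (left), mean deviation of the 6 immediate-early genes (middle) and SD of all probe sets (right), all on the log2 scale. Control 2 is lowest and ethanol 4 highest in all 3 panels, and ethanol 2 lies above 0 in the left panel and at -0.36 in the middle one.

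Markers of type 2 cells had the highest mean values of the cell type lists, and macrophage and airway club cell markers were also bright. Sftpc, the surfactant protein C gene that defines type 2 cells, lay at 12.41 to 12.84 on the 7 arrays, where the values of all probe sets ran from 1.65 to 12.84. The mean log2 value of the 5 measured type 2 markers of 8 listed was 10.1 to 10.4 in the controls and 9.80 to 10.4 with ethanol. Of the 5 genes 2 were higher and 3 lower with ethanol, and 0 of their probe sets passed in limma. Their mean deviation was lowest in ethanol 2, at -0.41. The 5 fibroblast and smooth muscle markers, all measured, had a mean log2 value of 5.74 to 6.48 in the controls and 5.49 to 5.66 with ethanol. This list was lower in every ethanol array than in every control, with 8 of its 11 probe sets lower at unadjusted p under 0.05 (2.45% of all probe sets). Smooth muscle also expresses Hspb1 and Cryab, and the part of such cells in their values was not tested. Macrophage markers (3 of 6 measured) were at 7.56 to 8.36 and 7.79 to 8.10, airway club cell markers (2 of 3) at 7.62 to 8.87 and 8.06 to 8.35, and endothelial markers (3 of 5) at 4.11 to 4.40 and 4.06 to 4.32. T and natural killer cell markers (4 of 6) were at 4.34 to 4.49 and 4.19 to 4.33, and B and plasma cell markers (2 of 5) at 4.90 to 5.10 and 4.75 to 5.09.

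Beyond the members, 30 of 71 listed chaperone and heat shock response genes were measured, by 51 probe sets. In limma 0 of the 51 passed and 2 had an unadjusted p under 0.05, beside 4.58% of all probe sets. With ethanol 30 were higher and 21 lower, beside 48.5% of all probe sets higher. The median log2 difference was 0.0072. The one-sided direction of the 15 member probe sets was not seen in the wider list, and the difference between the lists was not tested.

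The HSP90 list (6 of 10 genes, 13 probe sets) had 9 probe sets higher and 4 lower. Hsp90ab1, the constitutive cytosolic HSP90, had log2 differences of 0.16 to 0.47 on 4 probe sets (lowest adjusted p = 0.967). Its S45392_at lay at 8.55, 6.99, 7.31 and 8.41 in the controls and at 7.85, 8.49 and 8.50 with ethanol, so the groups overlapped fully. Fkbp4, a co-chaperone of HSP90 in steroid receptor complexes, had 1 probe set with all ethanol arrays above all controls, rc_AI231547_at, at 5.08 to 5.57 in the controls and 5.63 to 5.92 with ethanol. Its log2 difference was 0.43 (SE 0.15, limma adjusted p = 0.967), while the other Fkbp4 probe sets were at -0.0062 and 0.0042. Stip1, which links HSP70 to HSP90, was at 0.0062.

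Among J domain proteins and exchange factors (8 of 21 genes, 14 probe sets, 8 higher and 6 lower), Dnajb1, the inducible HSP40, was at 0.36 on rc_AA945704_at and 0.21 on rc_AA859648_at. Dnaja2, a close relative of Dnaja1, had probe sets in both directions: -0.31 on rc_AI170685_at, with all ethanol arrays below all controls (SE 0.12, limma adjusted p = 0.967), and 0.58 on U95727_at (SE 0.30). Dnaja3, the mitochondrial J domain protein, was at 0.0058. The HSP70 list (7 of 13 genes, 10 probe sets) had 3 higher and 7 lower. In it Hspa2, an HSP70 first known from testis, was at 0.37, Hspa9, the mitochondrial HSP70, at 0.22, -0.12 and -0.13 on its probe sets, Hspa13 at -0.22, Hspa4 at -0.14 and -0.061, and Hspa1l at -0.037.

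All 5 probe sets of the other small heat shock proteins were higher by 0.019 to 0.22, with Hspb6 at 0.22 and 0.019, Cryaa at 0.098 and Hspb2 at 0.080 and 0.058. The 3 chaperonin and prefoldin genes Pfdn2, Cct3 and Cct6a were at 0.12, 0.11 and 0.0072. Hsf1, the regulator of the heat shock response, was at -0.13, -0.019 and 0.059 on its 3 probe sets. Hmox1, heme oxygenase, was at -0.17 and -0.059, and Serpinh1, the collagen chaperone HSP47, at 0.10. The mRNA of Hsf1 does not report its activity, which is set after translation.

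Over the 7 arrays, the genes outside the heat shock lists whose values followed the mean of the 7 member genes most closely were Gpx4, Psma4, Ndufa5, Slc25a5 and Ugcg, with Pearson correlations of 0.975 to 0.986. They were picked as the highest of 4699 genes, so the values are a description. Gpx4, a glutathione peroxidase that reduces lipid peroxides, lay at 6.45, 5.77, 6.31 and 6.75 in the controls and at 6.51, 6.39 and 7.05 with ethanol. Like the members it was lowest in control 2 and highest in ethanol 4, and its log2 difference was 0.33 (limma adjusted p = 0.967). Psma4, a proteasome subunit, Ndufa5, a subunit of respiratory complex I, Slc25a5, the mitochondrial ADP/ATP carrier, and Ugcg, the glucosylceramide synthase, had log2 differences of 0.19, 0.34, 0.22 and 0.11.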

How the data were processed

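Each of 7 arrays had 8799 probe set values in the deposited table. From their range (1.65 to 12.84), these deposited values were taken to be log2 expression, and the array means (4.758 to 4.760) showed a common scale. The authors' probe summary, background correction and normalisation are not given in the sources used here; if dim probe sets were shrunk, their differences are understated. After removal of 59 array control probe sets, 8740 were tested with limma 3.58.1 in R 4.3.3 (group as the term, empirical Bayes variance, two-sided, Benjamini-Hochberg over all 8740). Pairs of arrays correlated at 0.929 to 0.983. Precision is limited by the number of arrays; a log2 difference had a median SE of 0.148. The p-values measure the spread between animals.

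The platform annotation gave 1 symbol to 7006 probe sets, several to 308 and none to 1426. All 15 member probe sets matched the RefSeq gene table (GRCr8) by Entrez identifier with the same symbol. Members, lists and tests were chosen with earlier results of these data known. Named besides the members were up to 3 genes per chaperone list with the lowest p, the first 2 measured genes of each list, and the 5 genes most like the members. Hspa4 falls outside this rule and was named in addition. A gene's probe set with the highest mean represented it for lists of markers and for this likeness. Alternatives are given at the end; the array SD as a covariate, the joint omission of 2 arrays and the counting of probe sets with several symbols were added after seeing the data. In 20 simulations of 8740 independent probe sets, 200 picked at random were changed. There limma recovered 33.1% of the changes at 1.5-fold, 77.0% at 2-fold and 96.8% at 4-fold, with 5.85% false calls. These shares are not those for the members, whose median within-group SD was 0.39 against 0.19 over all probe sets. The simulation also leaves out any correlation between probe sets. Matplotlib 3.10.9 (Python 3.11.15) drew the figures.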

Additional observations from a re-analysis of the deposited data

Results flagged for a closer look

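In 23 measures the outermost of the 4 controls was set against its nearest neighbour, relative to the controls' whole range, and 1 stood out, where chance gives about 1 in 20. This was Cryab on M55534mRNA_s_at, with a value of 4.26 in control 2, whereas controls 1, 3 and 4 had 3.63 to 3.74. The ethanol arrays were at 4.09, 3.73 and 4.21.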

How the results depend on the processing

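In limma, 0 of the member probe sets passed under any setting tried. The lowest adjusted p of any member ran from 0.0830, with the replicate block, to 0.998 over the settings. The median log2 difference of the members stayed positive, from 0.14 with array weights to 0.35 without ethanol 2. The count over all probe sets was 13 in the main fit, 23 with the replicate block, 19 with array weights and 18 with the array SD as a covariate. It was 0 without variance moderation (367 at unadjusted p under 0.05). With 1 probe set per gene or with a gene's probe sets averaged it was 1, and there the unnamed and several-symbol probe sets are not tested. In the other settings that kept all arrays it was 12 or 13. With each array left out it ran from 13 to 16. The sample titles do not state that the replicate numbers pair animals, so the block is given only here. Deviations of same-numbered arrays correlated at 0.425, 0.0666 and 0.432. Differently numbered arrays were not compared, so these values do not settle whether the arrays are paired. With the block, which leaves out control 1, 5 of the 15 had an unadjusted limma p under 0.05, beside 8.12% of all probe sets.

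With array weights, which gave control 2 the lowest weight (0.392), 11 of the 15 were higher and 4 lower. In that setting Hspb1 M86389cds_s_at was at 0.14 (limma unadjusted p = 0.401), rc_AI176658_s_at at 0.66 and rc_AA998683_g_at at 0.87. After quantile normalization M86389cds_s_at was at 0.32 (limma unadjusted p = 0.137). Directions turned in several single probe sets. Hspb1 rc_AA998683_at was at -0.031 after quantile normalization, -0.053 with array weights and -0.078 with the replicate block, and ran from -0.20 to 0.18 with each array left out and was 0.26 without control 2 and ethanol 4 together. Hspe1 rc_AI170613_g_at was at -0.11 with array weights, -0.11 with the array SD as a covariate, and -0.20 to 0.19 with each array left out. Cryab X60351cds_s_at was at -0.15 with array weights, and ran from 0.036 to 0.30 with each array left out. With each array left out Hsph1 rc_AI236601_at ran from -0.078 to 0.37 and Dnaja1 U53922_at from -0.15 to 0.46, while Hspd1 X54793_at ran from 0.089 to 0.49. Without both of those arrays, the values were -0.38 for Hspe1 rc_AI170613_g_at, -0.21 for Hsph1 rc_AI236601_at, -0.31 for Dnaja1 U53922_at, -0.039 for Hspd1 X54793_at and -0.017 for Cryab X60351cds_s_at. The cause was not tested.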
